A study of Mus musculus with 9 samples.

Results

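The genes described here encode the striated muscle myosin light chains Myl1, Myl2, Myl3, Myl4, Mylpf and Myl6b and the myosin light chain kinases Mylk2 and Mylk4. They were taken by name, as 8 of the 35675 genes of the data set, and not by a cut on their measured values. Earlier results of these data were known when they were chosen. RNA was sequenced from polyadenylated transcripts of mouse embryonic fibroblasts (MEFs), fibroblasts grown from embryo tissue, and all 9 libraries carried the Dmdmdx genotype, a dystrophin mutation used to model Duchenne muscular dystrophy in mice. The 3 libraries called MEF had no treatment. The 3 libraries called MyoD came from the same kind of cells given MyoD, the transcription factor that can start the skeletal muscle programme in fibroblasts. The 3 libraries called F/R/C came from cells given MyoD together with F/R/C; what these letters stand for is not in the labels. The sources used here do not state how MyoD was delivered, its promoter or the time of sampling. Whether the replicates of a group are separate cultures or embryos is not stated, so the spread that the p-values rest on may be technical.

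Each head of a myosin motor carries an essential and a regulatory light chain, which wrap around and stiffen its lever arm. Skeletal, cardiac, smooth muscle and non-muscle myosins draw these chains from different genes. Myl1 encodes the essential chains of fast skeletal fibres and Mylpf their regulatory chain. Myl4 encodes the essential chain of embryonic skeletal muscle and of the adult atrium. Myl3 and Myl2 encode the essential and regulatory chains shared by slow fibres and the cardiac ventricle. Myl6b encodes an essential chain found in slow fibres and in some non-muscle cells, beside the widespread non-muscle and smooth muscle essential chain from Myl6. Light chain kinases phosphorylate the regulatory chain, and Mylk2, the skeletal form, is activated by calcium and calmodulin.

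The libraries held 21112071 to 24291056 estimated counts, and a count of 0 allowed up to 3 counts, or 0.113 to 0.144 CPM (counts scaled to library size with edgeR's TMM factors). Intervals of that kind cover counting error only. The skeletal muscle markers, 9 genes fixed for this check, summed to 4.15 to 389 CPM in MEF, 730 to 2338 CPM with MyoD, and 24520 to 34165 CPM with F/R/C, and the 10 fibroblast markers summed to 18516 to 81994, 7826 to 34346 and 5442 to 8293 CPM. Col1a1, Col1a2 and Col3a1 made up most of the fibroblast sum. By group mean these and Pdgfra, Lum, Fbn1 and Postn fell in that order of groups. Dcn (218, 53.1 and 241 CPM), Thy1 (583, 424 and 540) and Fap (20.4, 24.7 and 22.7) did not. Myod1 itself was at 0.403 to 5.998 CPM in MEF, 7.21 to 19.0 CPM with MyoD, and 269 to 330 CPM with F/R/C. The heart list of 11 genes summed to 4.79 to 24.1 CPM in MEF, 6.58 to 34.0 with MyoD, and 17.7 to 35.1 with F/R/C. Nkx2-5, Nppa and Myl7, the 3 list genes at 0 in every MEF library, were also at 0 in every MyoD library. They reached at most 0.182, 0.72 and 0.0456 CPM with F/R/C. With no overlap, 5 of the 11 were higher in F/R/C than in MEF libraries, as were 27.1% of all genes tested. Among the 5 were Myh6 (0.0615 to 4.32 CPM by group mean), Nppb (0.0998 to 4.26) and Sln (0.0923 to 13.2). Lower by group mean were Tbx5 (10.05 to 1.61 CPM), Tnni3 (2.51 to 1.23), Ryr2 (0.394 to 0.145) and Mybpc3 (0.0309 to 0.0292). The library labelled MEF 3 stood apart: its skeletal muscle markers summed to 389 CPM, against 7.44 and 4.15 CPM in the other MEF libraries. Members' fold changes that it moved by over 1.5 times, or whose call it changed, are given with and without it. The effect of cell composition on the values was not tested. In these bulk libraries, fewer cells of a type and less RNA per cell cannot be told apart.

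The fast and embryonic chains Myl1, Mylpf and Myl4 became the most abundant light chain transcripts in F/R/C libraries, while the slow and ventricular chains Myl2 and Myl3 stayed at or below 3.36 TPM (abundance scaled for transcript length and library size) in every library. Of the 7 members that passed the filter on low counts, 6 rose in F/R/C against MEF libraries, namely Myl1, Myl4, Mylpf, Myl6b, Mylk2 and Mylk4. Over all 15714 genes tested, 19.5% rose in that comparison. Against MyoD libraries 4 of the 7 rose (Myl4, Myl6b, Mylk2 and Mylk4), against 17.8% of all genes tested. In MyoD against MEF libraries none of the 7 passed edgeR's quasi-likelihood test at an adjusted p under 0.05, nor did any gene of the data set (0%). There, 732 genes (4.66%) had an unadjusted p under 0.05. DESeq2 called 160 genes higher and 11 lower, with Mylk4 the only member among them. Replicate numbers were taken as pairing these groups, but the fit reported does not use the pairing. Blocking on replicate number over all 9 libraries, F/R/C included, called 13 genes higher and no member. A paired fit of MEF and MyoD libraries alone was not run. The members' median log2 fold change was 3.02 between MyoD and MEF libraries, 7.27 between F/R/C and MEF and 4.13 between F/R/C and MyoD, beside -0.01, -0.04 and -0.02 for all genes tested. The 3 comparisons share libraries, so they are not independent of each other. Myl3 did not pass the filter and has no test in the fit reported.

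**Figure D1:**
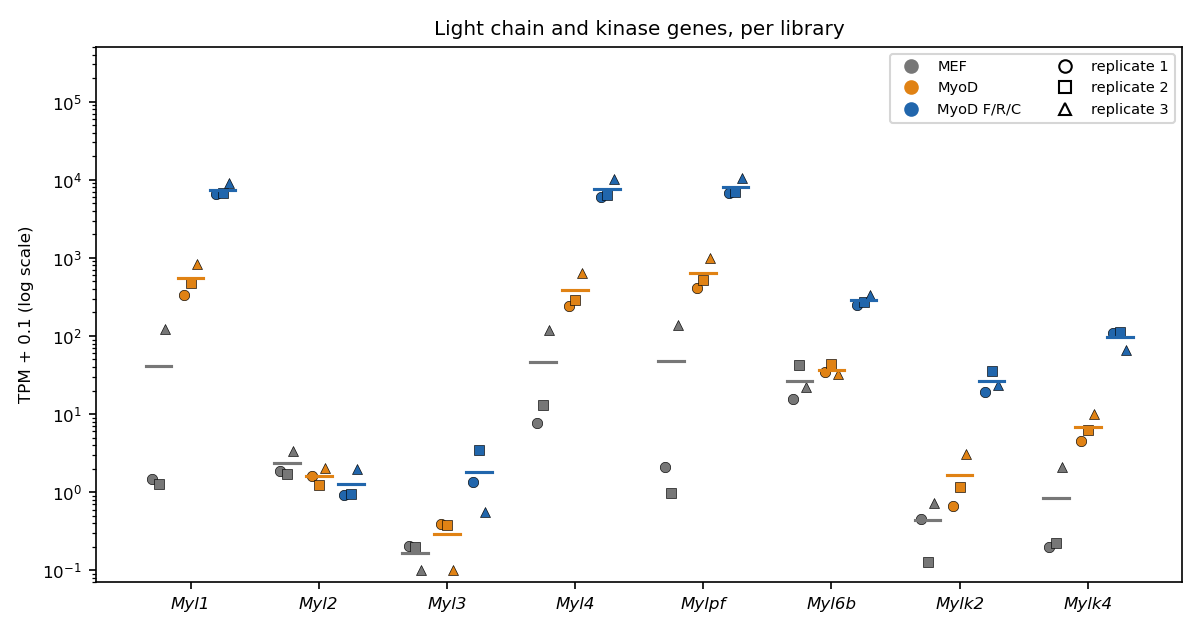
Level of the 8 genes in each of the 9 libraries, as TPM + 0.1 on a log scale; points are libraries, with shape giving the replicate number, and the short lines are group means. Myl1, Myl4 and Mylpf lie between 5948 and 10489 TPM in the 3 F/R/C libraries, the third MEF library lies far above the other MEF libraries for these genes, and Myl2 lies between 0.815 and 3.31 TPM in all groups.

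**Figure D2:**
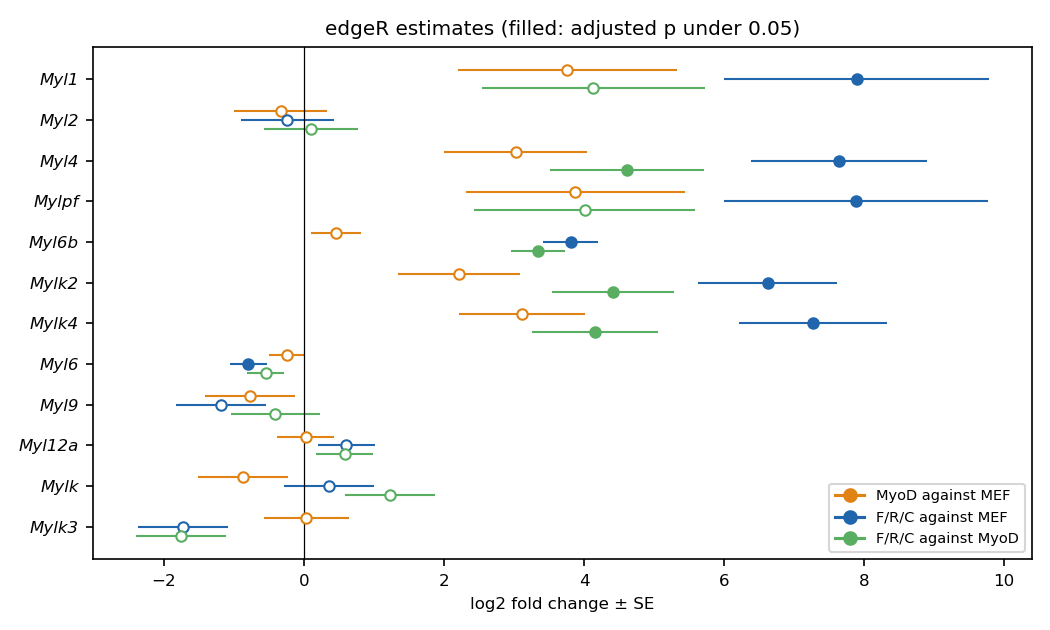
Log2 fold change with its SE for the 7 members tested and 5 light chain and kinase genes outside the set, for the 3 comparisons among MEF, MyoD and F/R/C groups; filled circles have an edgeR adjusted p under 0.05. The blue F/R/C against MEF estimates of 6 members lie between 3.81 and 7.89, and Myl2 lies near 0 in all 3 comparisons.

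Among the essential chains, Myl1 lies on the minus strand of chromosome 1 (chr1:66924295-66945404, GRCm38). Transcripts that begin at its first start code the long chain MLC1f, and those that begin at a second start 9767 bases further on, inside the gene, code the short chain MLC3f. The coding beginnings of these forms, Myl1-201 and Myl1-202, are shown because the division between them is measured below. They are spliced sequence from the GENCODE M21 transcripts, given 5′ to 3′ on the gene's strand, and span chr1:66930300-66944905 and chr1:66930300-66935278. Lower case marks the bases found only in that form and capitals the first 30 bases that both share.
Myl1-201: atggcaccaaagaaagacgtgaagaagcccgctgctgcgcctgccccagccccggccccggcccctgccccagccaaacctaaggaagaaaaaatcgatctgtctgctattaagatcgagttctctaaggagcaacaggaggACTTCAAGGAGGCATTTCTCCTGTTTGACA
Myl1-202: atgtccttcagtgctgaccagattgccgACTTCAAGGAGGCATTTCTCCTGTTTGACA
The long form has 142 coding bases of its own and 188 codons in all, and the short form has 28 bases of its own and 150 codons. The other 425 coding bases are common to both.

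Myl1 was at 0.326, 0.564 and 48.8 CPM in the MEF libraries, 137, 183 and 354 CPM with MyoD, and 3020.2, 3207 and 5585 CPM with F/R/C. No libraries of different groups overlapped, and the third library was the highest of each group. Among all genes tested, 4.4% had every MyoD library above every MEF library, and 27.1% every F/R/C library above every MEF library. The log2 fold change in F/R/C against MEF was 7.89 ± 1.89 (SE; adjusted p = 0.0118 by edgeR's quasi-likelihood test with Benjamini-Hochberg adjustment, as in all tests below), and 13.03 ± 0.85 (adjusted p = 0.000192) without MEF replicate 3, when the remaining MEF libraries held 7 and 14 counts. Against MyoD it was 4.13 ± 1.59, with an adjusted p of 0.0744 that did not pass although every F/R/C library lay above every MyoD library; 26.6% of all genes tested were separated in that direction. It passed with adjusted p = 0.002 when only MyoD and F/R/C libraries were fitted, and with adjusted p = 0.00104 when MEF replicate 3 was left out, a library that enters it only through the shared estimate of spread, and also without MEF replicate 1 (0.0380) or MEF replicate 2 (0.0476). In MyoD against MEF the log2 fold change was 3.76 ± 1.57 with all libraries and 8.97 ± 0.74 (adjusted p = 0.0024) without MEF replicate 3. Taken by replicate number, MyoD over MEF ratios of CPM were 419, 325 and 7.25 for Myl1.

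The short form made up most of Myl1 in every library with more than 14 counts of the gene. Transcripts from the first start accounted for 16.1% of Myl1 TPM in MEF replicate 3, for 25.5% ± 2.28 (SD, n = 3) with MyoD and for 18.7% ± 1.66 with F/R/C. The MyoD shares of 23.8%, 28.1% and 24.6% lay above the F/R/C shares of 20.6%, 17.8% and 17.8%. With 3 libraries against 3, an exact permutation test cannot give a two-sided p under 0.1, so no test of this share is given. As transcripts, Myl1-201 was at 1106 ± 270.2 TPM and Myl1-202 at 5968 ± 1171 TPM in F/R/C libraries. Myl1-201 rose in F/R/C against MEF by a log2 fold change of 8.59 ± 1.62 (edgeR adjusted p = 0.0142 over 44724 transcripts, of which 6.71% rose). Myl1-202, with 7.80 ± 2.14, had an edgeR adjusted p of 0.0508 and did not pass. Of the 24 member transcripts that entered the transcript tests and are counted here, 18 rose in F/R/C against MEF, 9 rose against MyoD, where 4.09% of all transcripts did, and 0 rose in MyoD libraries against MEF, where 0.0112% did. Some of these passed the filter only through the F/R/C libraries, where they are high, so their calls are a description and support no difference. Myl1-207 had 0 counts in every MEF and MyoD library, and Myl1-204 had at most 0.846 in MEF and 0 with MyoD. How kallisto divided reads among overlapping transcripts is an estimate, and its error is not part of these tests.

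Myl4 lies on the plus strand of chromosome 11 (chr11:104550663-104595753). It was at 3.02, 4.63 and 47.2 CPM in MEF libraries, 90.4, 102 and 254 CPM with MyoD, and 2590.2, 2793 and 5579 CPM with F/R/C. The groups did not overlap, and MEF replicate 3 again lay apart from the other MEF libraries. Myl4 rose in F/R/C against MEF by a log2 fold change of 7.64 ± 1.26 (edgeR adjusted p = 0.0025; 9.84 ± 0.85 without MEF replicate 3) and in F/R/C against MyoD by 4.62 ± 1.10 (edgeR adjusted p = 0.0132, or 0.0553 without MyoD replicate 2). In MyoD against MEF it was 3.02 ± 1.02 with all libraries, which did not pass, and 5.30 ± 0.70 (edgeR adjusted p = 0.0101) without MEF replicate 3.

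The annotated first start of Myl4 gave almost none of its transcripts in F/R/C libraries. Myl4-201, the transcript from that start, held 37.0, 46.4 and 38.9 estimated counts in MEF libraries, 54.4, 153 and 42.2 with MyoD, and 50.7, 101 and 207 with F/R/C. Its log2 fold change in F/R/C against MEF was 1.70 ± 0.65 (edgeR adjusted p = 0.139), and in F/R/C against MyoD 0.77 ± 0.64 (edgeR adjusted p = 0.538). Transcripts that start 26322 bases downstream (Myl4-202, Myl4-203 and Myl4-205) held 14.0, 32.2 and 889 counts in MEF, 1726, 2160.1 and 4377 with MyoD, and 52722, 50345 and 89755 with F/R/C. Of the downstream transcripts, Myl4-202 did not pass in F/R/C against MEF (7.80 ± 2.41, edgeR adjusted p = 0.0743) or against MyoD (4.84 ± 2.10, edgeR adjusted p = 0.204). Myl4-203 rose against MEF alone (6.15 ± 0.76, edgeR adjusted p = 0.00354; against MyoD 0.0633). Myl4-205 was called in both (10.13 ± 1.00, edgeR adjusted p = 0.00372, and 3.41 ± 0.67, edgeR adjusted p = 0.033). However, Myl4-205 had 0 counts in every MEF library and at most 17.8 with MyoD. It passed the filter chiefly through the F/R/C libraries, where it is high, so its calls are a description and support no difference. The downstream start carried 71.7% to 84.4% of Myl4 TPM with F/R/C, 78.9% to 83.3% with MyoD, and 20.8%, 24.6% and 86.6% in the MEF libraries. The first start carried 0.083% to 0.169% with F/R/C, 0.791% to 5.76% with MyoD, and 59.5%, 38.2% and 3.89% in MEF libraries, of which the first pair held 65 and 115 counts of the gene. Myl4-201 and Myl4-202 have the same 582 coding bases, so the starts differ in the leader and not in the encoded chain. Myl4-204, annotated as a retained intron, took 14.3%, 20.4% and 27.4% of Myl4 TPM in the F/R/C libraries.

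The 250 bases before the first start of Myl4 are shown because this start stayed low while the gene rose. They lie at chr11:104550413-104550662 on the plus strand of GRCm38.p6, from RefSeq, and the letters CANNTG, the core of the E-box that MyoD and related factors bind, do not occur in them on either strand.
Myl4 first start: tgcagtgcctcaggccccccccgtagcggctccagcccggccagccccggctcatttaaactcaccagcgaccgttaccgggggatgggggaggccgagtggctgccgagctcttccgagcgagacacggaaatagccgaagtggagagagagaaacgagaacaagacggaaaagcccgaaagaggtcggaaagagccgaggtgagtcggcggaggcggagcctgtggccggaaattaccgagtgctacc
Of 32851 RefSeq promoters of this length, 66.22% hold CANNTG on either strand, 13% hold CAGCTG, which is also a CANNTG, and 2.919% hold the MEF2 motif. The window before the downstream start was not analysed here.

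Myl3, the slow and ventricular essential chain (chr9:110741861-110769798, plus strand), had 1, 1 and 0 counts in MEF, 2, 3 and 0 with MyoD, and 12, 34 and 6 with F/R/C. The F/R/C libraries lay above the others, but at 1.26, 3.36 and 0.451 TPM they were far below the Myl1 level of 6612 to 9006 TPM. The log2 ratio of Myl1 to Myl3 in these libraries, on TPM + 1, was 11.57 ± 1.00 (SD, n = 3). In the 9 alternative fits in which Myl3 passed the filter, its edgeR adjusted p in F/R/C against MEF ran from 0.0095 to 0.0454, and in F/R/C against MyoD from 0.0314 to 0.0729, with 6 of the 9 under 0.05. With at most 1 count in MEF and 3 in MyoD libraries, Myl3 passed these filters through the F/R/C libraries, where it is high, so these values are a description and support no difference.

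Myl6b (chr10:128494157-128498685, minus strand) was at 6.88, 17.9 and 9.92 CPM in MEF libraries, 14.9, 17.6 and 15.3 CPM with MyoD, and 124, 140.4 and 222 CPM with F/R/C. The MEF and MyoD libraries overlapped and the F/R/C libraries lay above both. MEF replicate 3 did not stand out for this gene. Myl6b rose by 3.81 ± 0.39 on the log2 scale in F/R/C against MEF (edgeR adjusted p = 0.00044) and by 3.35 ± 0.38 in F/R/C against MyoD (edgeR adjusted p = 0.00091). Between MyoD and MEF libraries its log2 fold change was 0.46 ± 0.35 and did not pass. Its neighbour Myl6 lies on the same strand, and 11 bases separate the end of Myl6b from the start of Myl6. Myl6 fell by 0.79 ± 0.26 on the log2 scale in F/R/C against MEF (edgeR adjusted p = 0.0407; 18.1% of all genes tested fell), a call that 9 of the alternatives lost, with adjusted p up to 0.129. Against MyoD the log2 fold change of Myl6 was -0.55 ± 0.26 and did not pass.

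Summed over the 5 essential chains, the source of TPM shifted from the non-muscle to the muscle genes. Myl6 supplied 98.8%, 97.5% and 90.9% of this pool in MEF libraries, 72.5%, 69.7% and 58.9% with MyoD, and 6.40%, 6.03% and 5.28% with F/R/C. The fast chain Myl1 supplied 18.6% ± 3.84 with MyoD and 46.5% ± 2.5 with F/R/C (SD, n = 3). The embryonic chain Myl4 supplied 13.0% ± 3.87 and 45.8% ± 3.21. Myl4 was below Myl1 in all 3 MyoD libraries, with a log2 ratio of -0.53 ± 0.18 on TPM + 1, whereas in F/R/C libraries the ratio was -0.02 ± 0.18 and the genes were not separated. Myl6b stayed at 0.767% to 1.93% of the pool in every library, and Myl3 at or below 0.0236%.

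**Figure D3:**
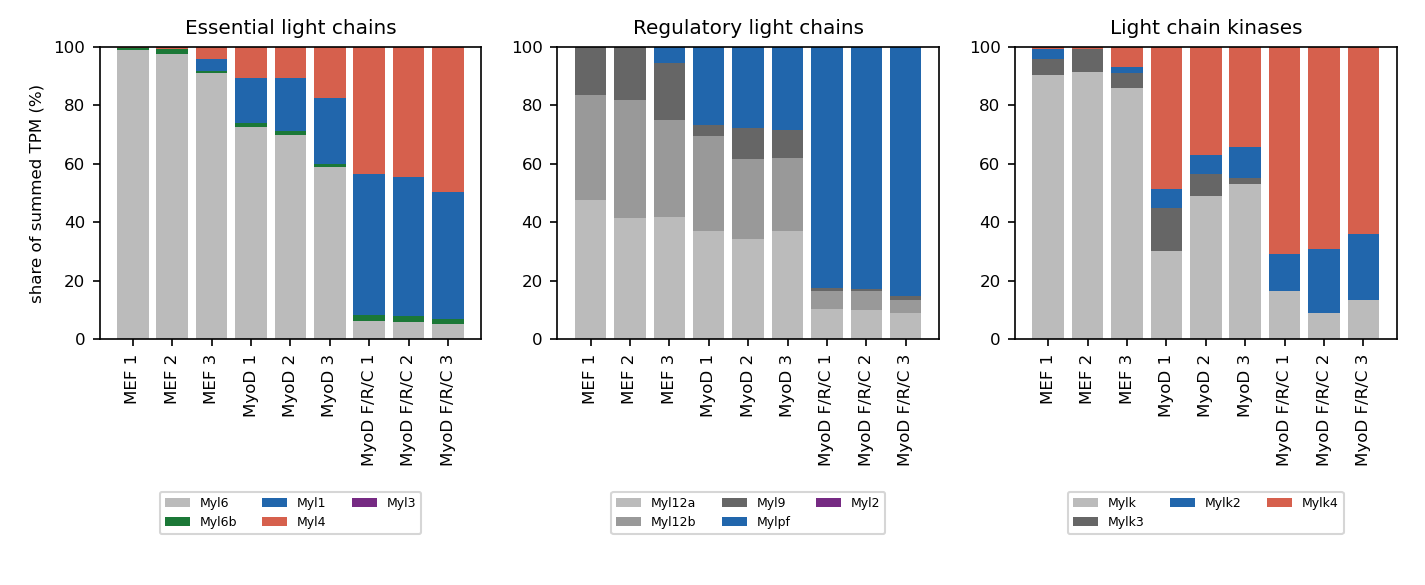
Share of summed TPM, in percent, that each gene supplied to the essential light chains, the regulatory light chains and the light chain kinases in each library; each bar is 1 library and its colours sum to 100. The grey genes, which are outside the set (Myl6, Myl12a, Myl12b, Myl9, Mylk and Mylk3), fill most of the MEF bars. In F/R/C libraries Myl1 with Myl4, Mylpf, and Mylk4 with Mylk2 take their place (Myl7 and Myl10, with at most 1 count, are not drawn).

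Among the regulatory chains, Mylpf, the fast skeletal form, lies on the plus strand of chromosome 7 (chr7:127208890-127214298). It was at 0.512, 0.242 and 39.1 CPM in MEF, 121, 146 and 318 CPM with MyoD, and 2252, 2483 and 4671 CPM with F/R/C. The groups did not overlap, and MEF replicate 3 lay far above the other MEF libraries. Mylpf rose in F/R/C against MEF by a log2 fold change of 7.88 ± 1.88 (edgeR adjusted p = 0.0115; 12.97 ± 0.93 without MEF replicate 3). Against MyoD it was 4.01 ± 1.57, with an edgeR adjusted p of 0.0789 that did not pass, and 3.94 ± 0.51 with an adjusted p of 0.00146 without MEF replicate 3. It passed as well without MEF replicate 2 (edgeR adjusted p = 0.0415), by DESeq2 (adjusted p = 0.0229), and with only MyoD and F/R/C libraries fitted (edgeR adjusted p = 0.00252). For MyoD against MEF it was 3.88 ± 1.57, which did not pass, and 9.03 ± 0.81 (edgeR adjusted p = 0.00313) without MEF replicate 3.

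Mylpf transcripts were assigned to 2 starts in near-constant proportion in MyoD and F/R/C libraries. Mylpf-205 and Mylpf-206, from the upstream start, took 75.0%, 74.9% and 76.1% of Mylpf TPM in F/R/C libraries and 73.6%, 76.6% and 71.7% in MyoD libraries. Mylpf-201, which starts 2718 bases further on, took nearly all the rest. Mylpf-206 codes 149 codons and Mylpf-201 169, and the 450 coding bases of the former are all within the latter. The 250 bases before the Mylpf-201 start (chr7:127211358-127211607, plus strand, RefSeq on GRCm38.p6) are shown because Mylpf was the most abundant light chain gene in F/R/C libraries. They precede its minor start, which took 23.9% to 25.2% of Mylpf TPM there, and the window before the upstream start was not analysed. They hold a CAGCTG, in capitals, beginning 51 bases before the Mylpf-201 start.
Mylpf: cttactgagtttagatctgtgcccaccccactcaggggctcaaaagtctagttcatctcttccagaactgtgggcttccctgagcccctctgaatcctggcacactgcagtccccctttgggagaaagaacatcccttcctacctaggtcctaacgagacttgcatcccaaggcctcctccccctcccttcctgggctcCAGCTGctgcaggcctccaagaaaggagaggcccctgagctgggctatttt
The match is a description of the letters and was not tested for binding. The Myl1 window held a CAGCTG beginning 224 bases before its RefSeq start. A window of Myl2, which did not change, held a CAGCTG beginning 130 bases before its RefSeq start. That RefSeq start lies 7762 bases from the nearest start of a measured transcript, Myl2-201. The window of another RefSeq start of Myl2, 8227 bases from Myl2-201, held a CANNTG but no CAGCTG. The window of Myl6b, which rose, held a CANNTG but no CAGCTG. A relation between matches and levels was not tested.

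**Figure D4:**
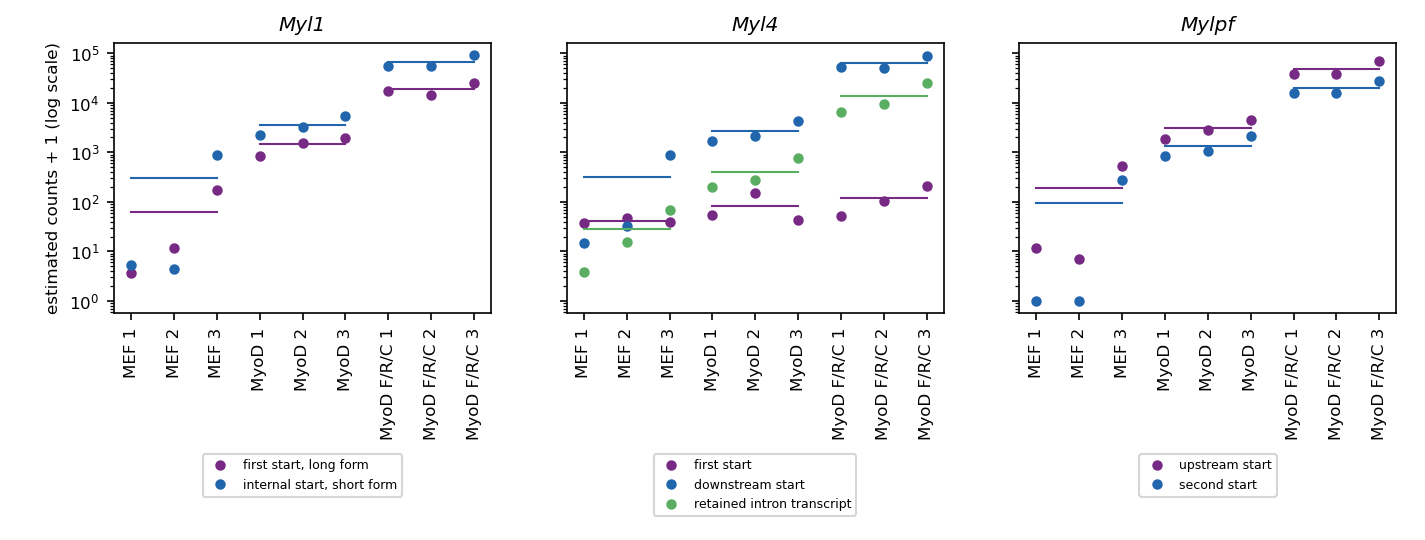
Estimated counts + 1 on a log scale, by start site, for Myl1, Myl4 and Mylpf in each of the 9 libraries; lines are group means. The downstream start of Myl4 reaches 50345 to 89755 counts in F/R/C libraries while its first start reaches at most 207, and the starts of Myl1 and of Mylpf stay roughly parallel in MyoD and F/R/C libraries.

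Myl2, the slow and ventricular regulatory chain (chr5:122100951-122113472, plus strand), had 7, 7 and 15 counts in MEF, 6, 5 and 12 with MyoD, and 7, 4 and 13 with F/R/C. The groups overlapped fully, and the third library of each group was the highest. Its log2 fold change was -0.24 ± 0.67 in F/R/C against MEF (edgeR adjusted p = 0.801) and 0.10 ± 0.67 in F/R/C against MyoD (edgeR adjusted p = 0.926), and its sign changed between alternatives. In MEF libraries all or nearly all of these counts were on Myl2-210, annotated as a processed transcript (7, 7 and 12.0 counts). The standard transcript Myl2-201 had 0 counts in every MEF library, 0, 0 and 10.1 counts with MyoD, and 2.55, 0 and 8.93 counts with F/R/C. Mylpf exceeded Myl2 by a log2 ratio of 11.87 ± 0.03 in F/R/C and 7.90 ± 0.51 in MyoD libraries (TPM + 1; SD, n = 3).

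Of the regulatory pool, Mylpf supplied 0.122%, 0.0569% and 5.46% of TPM in MEF libraries, 26.5%, 27.6% and 28.2% with MyoD, and 82.3%, 82.7% and 85.3% with F/R/C. Myl12a and Myl12b, the non-muscle regulatory chains, and Myl9, the smooth muscle form, supplied the rest apart from traces. Myl1 and Myl4 together were 4.47, 16.5 and 1.72 times Mylpf by TPM in the MEF libraries, 1.41, 1.46 and 1.49 times with MyoD, and 1.87, 1.86 and 1.83 times with F/R/C. The MyoD and F/R/C libraries did not overlap in this ratio, which has no test, and MEF replicate 3 lay between them.

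Of the kinases, Mylk2 (chr2:152911352-152923068, plus strand), the skeletal muscle kinase, was at 0.512, 0.0403 and 0.923 CPM in MEF libraries, 0.806, 1.40 and 4.62 CPM with MyoD, and 31.3, 61.6 and 52.1 CPM with F/R/C. The MEF and MyoD libraries overlapped and all F/R/C libraries lay above them. By replicate number, which was taken as pairing MEF with MyoD libraries, MyoD over MEF ratios were 1.58, 34.7 and 5.005. The ratio of 34.7 rests on 1 count in MEF replicate 2 and has no firm upper bound. Mylk2 rose by 6.62 ± 0.99 on the log2 scale in F/R/C against MEF (edgeR adjusted p = 0.00166; 7.42 ± 1.14 without MEF replicate 3) and by 4.41 ± 0.87 in F/R/C against MyoD (edgeR adjusted p = 0.00655). Between MyoD and MEF libraries it was 2.21 ± 0.87, or 3.08 ± 1.00 without MEF replicate 3, and passed in neither fit.

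Mylk4 (chr13:32700834-32783954, minus strand), a related kinase, was at 0.186, 0.403 and 3.599 CPM in MEF libraries, 6.09, 11.4 and 18.7 CPM with MyoD, and 179.6, 196 and 267 CPM with F/R/C. No groups overlapped. Mylk4 rose by 7.27 ± 1.06 on the log2 scale in F/R/C against MEF (edgeR adjusted p = 0.00147; 9.41 ± 0.70 without MEF replicate 3) and by 4.15 ± 0.90 in F/R/C against MyoD (edgeR adjusted p = 0.00939). For MyoD against MEF it was 3.11 ± 0.90 and did not pass in edgeR, while DESeq2 gave an adjusted p of 0.0276, and edgeR gave 5.32 ± 0.61 (adjusted p = 0.00624) without MEF replicate 3.

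The third F/R/C library, the highest for Mylk4 by CPM, was the lowest by TPM: replicates 1 and 2 were at 108 and 113 TPM and replicate 3 at 66.9 TPM. Counts assigned to different transcripts enter TPM by length. Mylk4-201 took 63.9% of Mylk4 TPM in replicate 3 and 23.9% and 24.1% in replicates 1 and 2. Mylk4-204 took most of the rest, with 80.6, 83.9 and 23.3 TPM in the 3 libraries. The 250 bases before the RefSeq start of Mylk4 (chr13:32783965-32784214, minus strand, GRCm38.p6) are shown because they hold the most motif matches of the members' promoters. In capitals are a MEF2 match beginning 103 bases before the start and CANNTG matches beginning 83, 64 and 8 bases before it, of which that at 64 is CAGCTG.
Mylk4: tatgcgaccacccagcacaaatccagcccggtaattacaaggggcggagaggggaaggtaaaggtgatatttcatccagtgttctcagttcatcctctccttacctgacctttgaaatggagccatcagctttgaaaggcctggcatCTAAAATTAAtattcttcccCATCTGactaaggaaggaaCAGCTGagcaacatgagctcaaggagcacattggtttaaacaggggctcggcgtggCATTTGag
This start is next to that of Mylk4-202, which had 0 counts in every library. Promoter entries were found for 7 of the 8 members, Mylk2 being the one without.

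**Figure D5:**
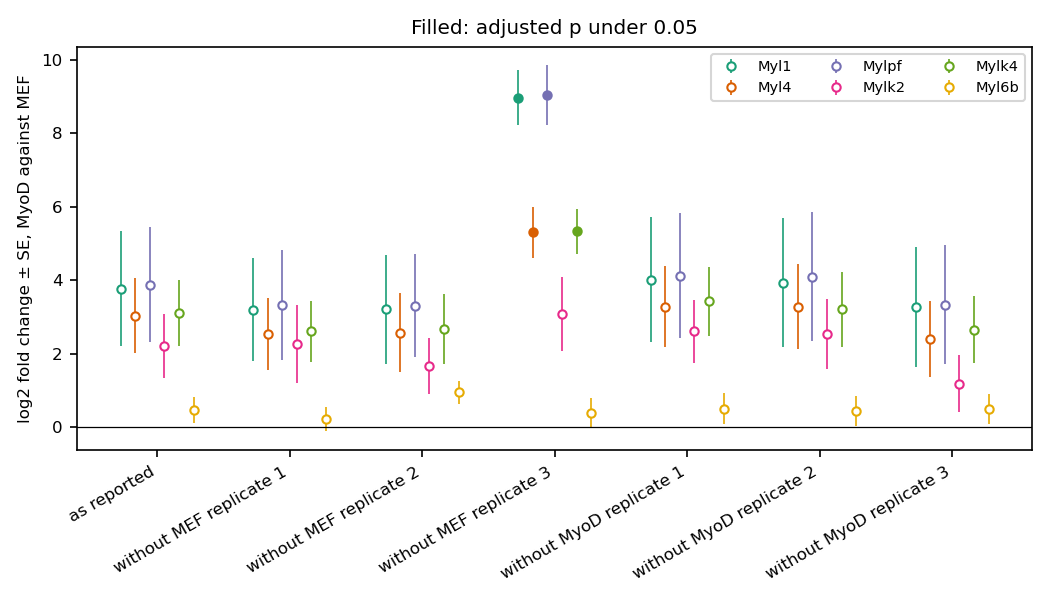
Log2 fold change with its SE in MyoD against MEF for 6 members, with all libraries and with each MEF or MyoD library left out; filled circles have an edgeR adjusted p under 0.05. Filled circles appear only without MEF replicate 3, for Myl1, Myl4, Mylpf and Mylk4.

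Of the kinase pool, Mylk, the smooth muscle and non-muscle kinase, supplied 89.1% ± 2.91 of TPM in MEF libraries, 44.1% ± 12.1 with MyoD, and 12.8% ± 3.78 with F/R/C (SD, n = 3). Mylk4 supplied 2.83% ± 3.55, 40.0% ± 7.65 and 68.1% ± 3.53, and Mylk2 1.84% ± 1.56, 7.70% ± 2.37 and 19.0% ± 5.61. Mylk itself did not pass in any comparison, at 44.0 ± 30.6, 24.02 ± 18.1 and 56.3 ± 6.36 CPM in the 3 groups. Mylk3, the cardiac kinase, did not pass either, with log2 fold changes of -1.72 ± 0.64 and -1.76 ± 0.64 in F/R/C against MEF and against MyoD (edgeR adjusted p = 0.0631 and 0.0635).

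By level, the order in F/R/C libraries was Mylpf at 8089 ± 2086 TPM, Myl4 at 7506 ± 2358 TPM and Myl1 at 7460.3 ± 1341 TPM, whose ranges overlapped. Myl12a at 947 ± 153 TPM and Myl6 at 942 ± 129 TPM came next and overlapped each other, with Myl12b at 515 TPM after them. Among the members, Myl6b followed at 288 ± 43.5 TPM, Mylk4 at 95.8 ± 25.1 TPM and Mylk2 at 26.1 ± 8.67 TPM; Myl9, at 64.7 to 173 TPM, overlapped Mylk4. The 8 members together took 1.03% ± 0.356 of all counts in F/R/C libraries, 0.0627% ± 0.0291 in MyoD and 0.0061% ± 0.00741 in MEF libraries. The 9 striated myosin heavy chains summed to 5170.1, 4574 and 4445 TPM in the F/R/C libraries.

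Genes that act on light chain phosphorylation from outside the set were counted in the same fit. Of the 13 genes of the light chain phosphatase, its regulators and opposing kinases, 2 rose and 1 fell in F/R/C against MEF, and 3 rose and 1 fell in F/R/C against MyoD, counts to be read beside the 19.5% and 17.8% of all genes that rose. The largest of these was Ppp1r14c, an inhibitor of protein phosphatase 1, at 1.39 ± 1.36, 6.72 ± 3.89 and 157 ± 39.5 CPM in MEF, MyoD and F/R/C libraries (SD, n = 3). It rose by 4.55 ± 0.78 on the log2 scale in F/R/C against MyoD (edgeR adjusted p = 0.00372). Ppp1r14a, another inhibitor of the phosphatase, rose by 2.59 ± 0.72 (edgeR adjusted p = 0.0245) and Ppp1r12a, its myosin-targeting subunit, by 0.57 ± 0.19 (edgeR adjusted p = 0.0442). Cdc42bpa, a kinase of the actomyosin system, fell by 1.20 ± 0.22 (edgeR adjusted p = 0.0048; 16.1% of all genes tested fell).

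Of the 7 calmodulin genes and calmodulin-dependent kinases, Camk2a and Camk2b rose in both F/R/C comparisons, Calm2 fell by 0.68 ± 0.20 on the log2 scale in F/R/C against MEF (edgeR adjusted p = 0.026), and the others passed in neither. Of all genes tested, 19.5% rose in F/R/C against MEF and 17.8% against MyoD. Camk2a was at 18.2 ± 12.7 CPM with MyoD and 280 ± 29.1 CPM with F/R/C, a log2 fold change of 3.95 ± 0.50 (edgeR adjusted p = 0.00127). Camk2b changed by 3.62 ± 0.46 (edgeR adjusted p = 0.00133). Calm2 had a log2 fold change of -0.52 ± 0.20 against MyoD (edgeR adjusted p = 0.0699), and the difference between the comparisons was not tested.

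Of the other light chains, Myl12b had 2 annotated genes under its symbol. The first fell by 0.80 ± 0.25 on the log2 scale in F/R/C against MyoD (edgeR adjusted p = 0.0376), a call lost in 7 alternatives, with adjusted p up to 0.108. The second, which begins at Myl12a, had a log2 fold change of 0.11 ± 0.30 (edgeR adjusted p = 0.792). Reads shared by these near-identical genes could be divided either way. Myl9 and Myl12a did not pass in any comparison, and Myl7 and Myl10 had 0 or 1 count in every library.

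Fast, slow and embryonic fibre genes outside the light chains were counted in the same fit, to set beside the light chains. Of all genes tested, 19.5% rose in F/R/C against MEF and 17.8% in F/R/C against MyoD, with median log2 fold changes of -0.04 and -0.02. All 12 fast fibre genes rose in F/R/C against MEF and 7 in F/R/C against MyoD, with median log2 fold changes of 7.69 and 3.98. Of the 11 slow fibre genes, 10 rose and Tpm3 fell against MEF, and 6 rose and Tpm3 fell against MyoD, with medians of 7.69 and 4.40. All 7 embryonic genes rose against MEF and 5 against MyoD, with medians of 7.70 and 4.27. Genes that rose against MyoD included the fast Pvalb (5.82 ± 1.00), Mybpc2 (4.54 ± 0.65) and Eno3 (3.69 ± 0.69), the slow Myh7b (5.57 ± 0.90), Ankrd2 (6.19 ± 1.34) and Tnnc1 (4.10 ± 1.00), and the embryonic Ncam1 (2.94 ± 0.44), as log2 fold changes that passed in edgeR. Slow Tnnt1 (4.49 ± 1.33) and Myh7 (4.41 ± 1.44), a troponin and the slow heavy chain, also rose against MyoD in libraries that held at most 13 counts of the slow regulatory chain Myl2 and 34 of the essential chain Myl3. The heavy chain genes of these lists are counted again below among the striated heavy chains.

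Of 9 striated heavy chains, 9 rose in F/R/C against MEF and 5 in F/R/C against MyoD, where 19.5% and 17.8% of all genes tested rose. Of smallest adjusted p against MyoD were Myh7b, Myh6 (7.75 ± 1.26) and Myh13 (6.05 ± 1.35). With MyoD, Myh6 and Myh13 reached at most 0.0177 and 0.0157 TPM. They passed the filter chiefly through the F/R/C libraries, where they are high, so their values are a description and support no difference. Of the 4 non-muscle and smooth muscle heavy chains, Myh14 rose and Myh9 and Myh10 fell in both, Myh10 by 1.75 ± 0.38 in F/R/C against MyoD (edgeR adjusted p = 0.00918). Of 7 folding and assembly genes of myosin, 6 rose against MEF and 3 against MyoD, among them the chaperone Unc45b (4.18 ± 0.93, edgeR adjusted p = 0.0102).

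The genes whose pattern over the 9 libraries lay closest to a member, by root mean square difference of centred log2(CPM + 1), were found for Mylpf, Myl4, Mylk2 and Myl2. For Mylpf these were Des (0.17), Atp2a1 (0.32), Tnni1 (0.44), Mybpc1 (0.45) and Tnnc2 (0.49). For Myl4 they were Tnnt1 (0.11), Tnnt2 (0.24), Tnni2 (0.25), Myom2 (0.26) and Pdlim3 (0.27). For Mylk2 they were Prob1, Crym, Kcnc1, Dtna and Camk2a, at 0.30 to 0.34. The pattern of Myl2, low and flat, lay closest to Psmd1, Pdcl3, Ppia, Gtf3c6 and Cops6, at 0.09 to 0.10. With Myl2 at 0.182 to 0.692 CPM, the added 1 flattens its pattern, so these matches say little about the gene.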

How the data were processed

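Polyadenylated RNA from 9 libraries was measured, 3 per group, from a TruSeq Stranded mRNA preparation according to the labels. The authors used bcl2fastq 2.19, Trimmomatic 0.36, kallisto 0.44, GRCm38.p6 and edgeR 3.28, per the submitters' processing notes; which annotation release and options, and whether strand was used, is not given in the sources used here. For each of 121843 transcripts and each library, the authors deposited kallisto's estimated count and a TPM value, per the file headers. Transcripts were joined to genes with GENCODE M21 (121104 matched; the other 739 held 0.200% to 0.494% of counts and were left out). Estimated counts were summed per gene and rounded; deposited TPM values were summed for levels, shares and ratios (log2 ratios on TPM + 1).

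Tests of genes used edgeR 4.0.16 in R 4.3.3 (filterByExpr, minimum count 10 and total 15, 15714 genes; TMM; quasi-likelihood F test; 1 fit of 9 libraries with group means), with Benjamini-Hochberg adjustment over all genes of a comparison and calls at adjusted p under 0.05. Transcripts were tested likewise (44724). The SE was derived from the fold change and the F statistic, and is approximate near 0 counts. The script was tested on simulated data with 200 changed genes. Alternatives were DESeq2 1.42.0, 2 other scalings, 2 other filters, a replicate block, fitting only the 2 groups compared, gene counts rebuilt from TPM, and leaving out libraries; for ratios and shares, CPM in place of TPM and a pseudocount of 0.1.

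The members and lists were chosen with earlier results of these data known. Named were all members, all other light chains and kinases, from each further list up to 4 genes by smallest adjusted p in F/R/C against MyoD, member transcripts of at least 1 TPM, and the 5 genes nearest in pattern to Mylpf, Myl4, Myl2 and Mylk2. Of these, those that illustrate each group are described; transcripts of at least 2% of the gene's TPM in F/R/C libraries, and Myl4-201, chosen after its values were seen, entered the alternatives. Equal replicate numbers correlated at 0.711, 0.715 and 0.775 between MEF and MyoD libraries, in their deviations from group means, and were taken as pairing these 2 groups. Between F/R/C and the others the correlations were 0.0691 to 0.144 for equal numbers and -0.158 to 0.0408 for unequal numbers. Not all of the former were over 0.1, so the numbers were not taken as pairing them. Every equal-number value still lay above every unequal-number value, so a weaker pairing may be present, and the replicate block below allows for it.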

Additional observations from a re-analysis of the deposited data

How the results depend on the processing

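Of the 121 alternative estimates of the 7 tested members in each comparison, 119 of F/R/C against MEF, 104 of F/R/C against MyoD and 110 of MyoD against MEF kept their direction and side of the threshold; all 8 that changed direction were of Myl2. In MyoD against MEF, where no member, gene or list gene was called, DESeq2 called 1 member, 160 genes higher and 11 lower, 9 list genes and 3 member transcripts. Leaving out the third MEF and MyoD libraries together gave 4, 198 and 1, 34 and 5, no filter beyond 1 count gave 10 genes higher, 1 lower and 1 list gene, and the replicate block gave 13 genes higher and 1 list gene. Leaving out 1 library gave 0 to 4 members, 0 to 158 genes higher, 0 to 3 lower, 0 to 34 list genes and 0 to 5 member transcripts, the upper values all without MEF replicate 3.

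In F/R/C against MyoD, leaving out 1 library gave 3 to 7 members called (7 without MEF replicate 2 or 3, with Myl3 then tested), 1778 to 2756 genes higher, 18 to 50 list genes (36 as reported) and 2 to 17 member transcripts (9 as reported). Without the third MEF and MyoD libraries the counts were 7 members, 57 list genes and 16 transcripts; DESeq2 gave 18 transcripts. The replicate block gave 56 list genes, and 6 members, adding Myl1 (edgeR adjusted p = 0.0321) and Mylpf (0.0313), though F/R/C numbers were not taken as pairing; it changed no other member's call. Fitting only these 2 groups also called Myl1 (0.002) and Mylpf (0.00252). DESeq2 gave Myl1 no adjusted p. In F/R/C against MEF, leaving out 1 library gave 11 to 19 member transcripts (18 as reported).

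Signs changed for small log2 fold changes only. In MyoD against MEF, leaving out 1 library gave Myl2 -0.91 to 0.19, Myl12a -0.52 to 0.28, Myl12b -0.10 to 0.25 and Mylk3 -0.29 to 0.68; Myl12a was -0.062 with the replicate block and -0.23 without the third MEF and MyoD libraries, and Mylk3 -0.18 with counts scaled from TPM. In F/R/C against MEF the range was -0.84 to 0.21 for Myl2 and -0.045 to 1.03 for Mylk. In F/R/C against MyoD it was -0.51 to 0.66 for Myl2 (-0.076 with total counts only) and -1.06 to 0.28 for Myl9 (0.30 without the third MEF and MyoD libraries). The cause was not tested.

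The log2 ratio of Mylpf to Myl2 by CPM was 7.07 for MyoD and 11.10 for F/R/C, and 8.55 and 12.70 with a pseudocount of 0.1; in MEF libraries it was -0.19 to 2.57 when 1 was left out. Myl1 to Myl3 in MyoD libraries was 7.61 by CPM and 11.01 with that pseudocount. Myl4 to Myl1 in F/R/C libraries was -0.12 to 0.046 when 1 was left out. The long form's share of Myl1 by counts was 28.8% for MyoD and 22.2% for F/R/C. With 3 counts allowed at 0, depth limits Myl2, Myl3 and MEF levels of Mylk2 most, and 3 libraries per group limit every test.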
